A study of Mus musculus with 2 samples.

Results

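Small leucine-rich proteoglycans (SLRPs) are secreted matrix proteins built around a run of leucine-rich repeats, and most of them carry glycosaminoglycan chains. They bind collagen fibrils and set fibril diameter and spacing, and several also bind growth factors such as TGF-β. In the injured heart they are made mainly by fibroblasts and myofibroblasts, the collagen-producing cells of the scar. The 10 SLRP genes described here, *Dcn*, *Bgn*, *Fmod*, *Lum*, *Ogn*, *Omd*, *Prelp*, *Aspn*, *Podn* and *Ecm2*, were taken by symbol from a count table of 24532 genes, and all 10 were present in it.

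Cardiac myofibroblasts, the CD45-negative cells left after removal of leukocytes and grown on plastic, had been isolated from C57BL/6 mouse hearts (C57BL/6J in the methods) 3 days after myocardial infarction (MI). They were transfected with 12.5 nM of a control siRNA (siCtrl) or of an siRNA against *Vgll3* (si*Vgll3*), and their mRNA was sequenced 72 h later. *Vgll3* encodes a transcriptional cofactor, and the comparison asks which transcripts depend on it. Each condition has 1 library, both conditions received transfection reagent, no untransfected library was analysed here, and whether hearts were pooled is not given in the sources used here. With no replicates, no test of a difference between the conditions was possible and no p-value is given.

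Levels are given in TPM, a value that the authors normalised for transcript length and library size. M is the log2 ratio of si*Vgll3* TPM to siCtrl TPM, and A is log2 of the mean TPM of both libraries. The brackets after M hold the 95% Clopper-Pearson interval of the read-count ratio, moved onto the TPM ratio. Reads carried no molecular identifiers, so these intervals cover counting error only and say nothing about the spread between cultures. A gene is called lower at M < −0.5 with A > 0, thresholds taken from the study's MA plot, and higher at M > 0.5 with A > 0. The formula of A is that given here, since the sources used here give none. The libraries held 140815237 and 125789276 reads on genes, and *Vgll3* itself was at 202 TPM with siCtrl and 84.0 TPM with si*Vgll3*, an M of −1.27 [−1.29, −1.24], so 41.6% of its mRNA was left.

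Of the 10 SLRP genes, 9 had A > 0, and *Omd* did not. Of these 9 genes, 7 were lower in si*Vgll3* and 0 were higher. Over all 11754 genes with A > 0, the same rules called 11.4% lower and 5.73% higher. In 6 of the 9 genes M lay below −1, against 3.27% of all genes, and *Ogn*, at −1.04, was the nearest of them to −1. With CPM, TMM, DESeq2's size factors or centring, *Ogn* lay between −0.999 and −0.988 and 5 of the 9 genes were below −1. The median M of the 9 genes was −1.23, and that of all genes was −0.05. The 9 genes are a chosen family and not independent draws, so no interval is set on their median. The 7 lower genes were *Fmod*, *Podn*, *Prelp*, *Aspn*, *Lum*, *Ogn* and *Ecm2*, while *Bgn* and *Dcn*, the most abundant SLRPs, had M between −0.5 and 0. Because these are bulk libraries, fewer cells that express a gene and less of its RNA per cell cannot be told apart.

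**Figure D1:**
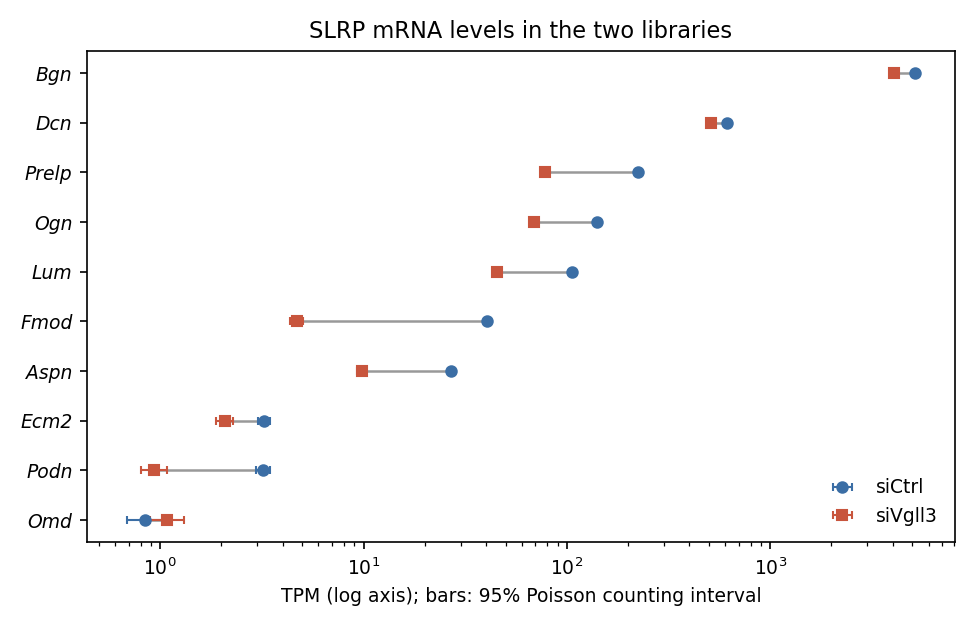
TPM of the 10 SLRP genes (log axis) in siCtrl (blue circles) and si*Vgll3* (red squares), 1 library each, with 95% Poisson counting intervals as bars. The grey line is long for *Fmod* (40.5 and 4.69 TPM) and short for *Bgn* (5155 and 4065 TPM) and *Dcn* (614 and 514 TPM), and only *Omd* has its red square on the right.

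In siCtrl the order of the levels per transcript length was *Bgn*, *Dcn*, *Prelp*, *Ogn*, *Lum*, *Fmod*, *Aspn*, *Ecm2*, *Podn* and *Omd*. *Ecm2* and *Podn* could not be ordered beyond counting error, with Poisson intervals of 3.01 to 3.48 TPM and 2.96 to 3.46 TPM. In si*Vgll3* the first 5 places were unchanged, *Aspn* stood above *Fmod*, and *Omd* and *Podn*, with overlapping intervals of 0.892 to 1.30 TPM and 0.800 to 1.08 TPM, came last.

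Most class II SLRPs carry keratan sulfate chains, and the class acts on collagen fibril assembly. All 3 of them with A > 0 were lower in si*Vgll3*, where the share over all genes was 11.4%. Their summed TPM, with *Omd* included, went from 370 to 129, with an M of −1.51 [−1.54, −1.49], where the bracket for a sum is a Poisson approximation.

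*Fmod* (NCBI gene 14264, chromosome 1 from 134037254 to 134048280, plus strand, 3 exons) encodes fibromodulin, which binds collagen I and shapes its fibrils. It had 7387 reads in siCtrl and 793 reads in si*Vgll3*. Its level was 40.5 TPM with siCtrl and 4.69 TPM with si*Vgll3*, so 11.6% of the siCtrl level was left. The M of *Fmod*, −3.11 [−3.22, −3.003], was the 11th lowest of the 11754 genes with A > 0. By TPM, *Fmod* was the 3749th gene from the top with siCtrl and the 9540th with si*Vgll3*.

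*Prelp* (NCBI gene 116847, chromosome 1 from 133910304 to 133930102, minus strand) encodes a protein with a basic amino-terminal part that binds heparan sulfate as well as collagen. It was at 223 TPM with siCtrl and 78.4 TPM after si*Vgll3*, for an M of −1.51 [−1.53, −1.48] from 51212 and 16693 reads. *Prelp* was the third most abundant SLRP in each library, and 35.2% of its siCtrl level was left.

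*Lum* (NCBI gene 17022, chromosome 10 from 97565501 to 97572703, plus strand) encodes lumican, which shares its collagen-binding site with fibromodulin. It was at 106 TPM with siCtrl and 45.2 TPM after si*Vgll3*, for an M of −1.23 [−1.27, −1.18]. The ratio of *Lum* to *Fmod* TPM was 2.61 with siCtrl and 9.63 with si*Vgll3*, so the pair moved by unequal amounts.

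*Omd* (NCBI gene 27047, chromosome 13 from 49582462 to 49592612, plus strand) encodes osteomodulin, a keratan sulfate proteoglycan known from bone. It was detected at a low level, with 95 reads in siCtrl and 113 reads in si*Vgll3*, and its A lay just below 0. Its level was 0.845 TPM with siCtrl and 1.08 TPM with si*Vgll3*, and its M of 0.36 [−0.05, 0.77] did not differ from 0 by more than counting error.

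Class I SLRPs include decorin and biglycan, which carry chondroitin or dermatan sulfate chains, and asporin, which carries none. *Ecm2* was counted with them here. All 4 had A > 0, and 2, *Aspn* and *Ecm2*, were lower by the rule (against 11.4% of all genes), with M of the 4 from −1.46 to −0.26. *Bgn* (NCBI gene 12111, chromosome X from 73483601 to 73495936, plus strand) encodes biglycan, which also acts as a ligand of Toll-like receptors when it is released from the matrix. It was the 9th most abundant gene of the siCtrl library and the 18th of the si*Vgll3* library. Its 5155 TPM with siCtrl and 4065 TPM with si*Vgll3* gave an M of −0.34 [−0.35, −0.34].

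*Dcn* (NCBI gene 13179, chromosome 10 from 97479500 to 97518163, plus strand) encodes decorin, a collagen I and TGF-β binding proteoglycan. It was at 614 TPM with siCtrl and 514 TPM after si*Vgll3*, for an M of −0.26 [−0.27, −0.24]. Both *Bgn* and *Dcn* were thus below their siCtrl level by more than counting error, with 78.8% and 83.7% of it left, but above the threshold. With CPM, TMM, DESeq2's size factors or centring, *Bgn* lay at −0.30 to −0.29 and *Dcn* at −0.22 to −0.21. These values are outside the brackets, so the choice of scaling mattered more than counting error. The ratio of *Bgn* to *Dcn* TPM was 8.40 with siCtrl and 7.91 with si*Vgll3*, whereas that of *Dcn* to *Fmod* was 15.2 and 109.5.

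*Aspn* (NCBI gene 66695, chromosome 13 from 49544443 to 49567565, plus strand) encodes asporin, which binds collagen and TGF-β. It was at 26.9 TPM with siCtrl and 9.80 TPM after si*Vgll3*, for an M of −1.46 [−1.55, −1.37]. *Ecm2* (NCBI gene 407800, chromosome 13 from 49504810 to 49532789, plus strand), which encodes a larger matrix protein with an SLRP-like repeat region, was at 3.24 TPM and 2.08 TPM from 744 and 442 reads. The M of *Ecm2*, −0.64 [−0.81, −0.47], had an upper bound above −0.5, so its place below the threshold was within counting error. With 1 TPM added to both libraries it was −0.46.

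*Ogn* (NCBI gene 18295, chromosome 13 from 49608015 to 49624501, plus strand) encodes osteoglycin, a class III SLRP known from genetic studies of left ventricular mass. It was at 141 TPM with siCtrl and 68.6 TPM after si*Vgll3*, for an M of −1.04 [−1.07, −1.01] from 22865 and 10298 reads. *Podn* (NCBI gene 242608, chromosome 4 from 108014793 to 108031954, minus strand) encodes podocan, a class V SLRP that limits smooth muscle cell growth. It had only 646 reads in siCtrl and 179 reads in si*Vgll3*, or 3.20 TPM and 0.932 TPM, and its M was −1.78 [−2.03, −1.54]. For *Podn*, M from the read counts scaled to library totals was −1.69, a gap of −0.09, while the gap of each other member rounded to −0.05 and its 5th and 95th percentiles over all genes were −0.06 and −0.04.

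**Figure D2:**
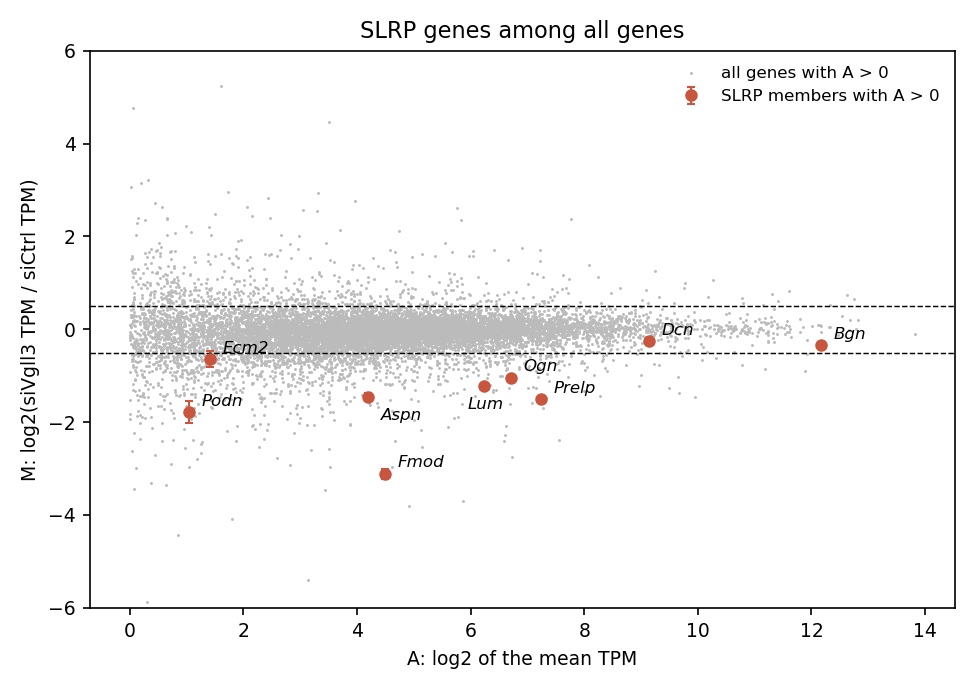
M against A for all 11754 genes with A > 0 (grey) and for the 9 SLRP genes with A > 0 (red, bars are 95% counting intervals), with dashed lines at M of −0.5 and 0.5. The red points of the 7 lower genes lie below the lower line, from −0.64 for *Ecm2* to −3.11 for *Fmod*, and the points of *Dcn* and *Bgn* lie between the lines on the right.

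Summed over the 10 genes, SLRP mRNA came to 6313 TPM with siCtrl and 4789 TPM with si*Vgll3* (0.632% and 0.480% of each library), with an M of −0.40 [−0.40, −0.39]. *Bgn* alone made up 81.7% of this sum in siCtrl and 84.9% in si*Vgll3*, and *Dcn* a further 9.72% and 10.7%. Without *Bgn* the sum had an M of −0.68. Without *Bgn* and *Dcn* it went from 544 TPM to 211 TPM, an M of −1.37 [−1.39, −1.35], so that 38.7% of the siCtrl level was left. The share of *Fmod* in the whole sum was 0.641% in siCtrl and 0.0979% in si*Vgll3*. The total therefore changed less than most of its members, and its make-up moved towards biglycan and decorin.

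The remaining genes of the family were set beside these 10. *Tsku*, which encodes tsukushi, a secreted regulator of signalling ligands, was the only one of the 8 with more than 2 TPM, at 50.2 TPM with siCtrl and 51.4 TPM after si*Vgll3*, for an M of 0.03 [−0.01, 0.08]. *Podnl1*, the closest relative of *Podn*, was at 1.45 TPM and 0.736 TPM, an M of −0.98 [−1.35, −0.61] from 193 and 91 reads. *Epyc*, the cartilage SLRP epiphycan, had an M of −0.29 [−0.65, 0.07]. *Optc*, *Chadl* and *Nyx* had A below 0, with 39 and 50 reads, 107 and 79 reads, and 40 and 40 reads in siCtrl and si*Vgll3*. The cornea gene *Kera* and the cartilage gene *Chad* were without a read in either library, where 0 still allows up to 3 reads.

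Most SLRP genes lie next to each other on a few chromosomes, and the 3 nearest measured genes on either side of each run were listed with them. In these runs and around the single genes *Podn* and *Bgn* there were 31 such neighbours or overlapping genes, of which 27 had A > 0. None of the 27 was lower by the rule (0 of 27, against 11.4% of all genes). Of the same 27, 2 were higher, where the share over all genes was 5.73%, and the median M of the 27 was −0.01.

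On chromosome 13, *Ecm2*, *Aspn*, *Omd* and *Ogn* follow each other on the plus strand, and all 4 lie inside the span of *Cenpp*, a centromere protein gene on the other strand. *Ecm2*, *Aspn* and *Ogn* were lower, whereas *Cenpp* was at 12.1 TPM with siCtrl and 15.9 TPM after si*Vgll3*, for an M of 0.40 [0.26, 0.53]. *Omd*, with its few reads, had an M of 0.36 [−0.05, 0.77]. The library kit keeps strand, but whether the counting used it is not given in the sources used here. Whether *Cenpp* reads contributed to the counts of these SLRP genes was not tested. On the outer sides, *Ippk* and *Bicd2* had M of 0.11 and 0.17, *Nol8* and *Iars* had M of 0.14 and −0.01, *Fbxw17* was at 0.00, and *Fgd3*, a GTPase regulator, was higher at 0.70 [0.64, 0.76].

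On chromosome 10, *Dcn* and *Lum* are neighbours, and the M of *Lum* lay 0.97 below that of *Dcn*. *Kera* and *Epyc* follow them, and the measured genes outside the run, *Nudt4*, *Eea1*, *Btg1*, *Atp2b1*, *Poc1b* and *Galnt4*, had M from −0.48 to 0.27. On chromosome 1, *Prelp* and *Fmod* were lower, while *Optc*, adjoining *Prelp*, had an M of 0.46 [−0.17, 1.11]. Around them, *Zc3h11a*, *Atp2b4* and *Btg2* had M of −0.13, −0.28 and 0.04. *Chil1* had 35 and 9 reads, *Ppfia4* 10 and 7, and *Mir6903* 1 in each library, all with A below 0. Near *Podn*, *Magoh*, *0610037L13Rik*, *Cpt2*, *Scp2*, *Echdc2* and *Zyg11b* had M from −0.34 to 0.15. Near *Bgn*, *F8a*, *Zfp275*, *Haus7* and *Slc6a8* had M from −0.07 to 0.21. *Dusp9*, a phosphatase gene on the far side of *Bgn*, was higher with 74 and 279 reads, an M of 2.03 [1.66, 2.42], and *Pnck* had 54 and 75 reads with A below 0.

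**Figure D3:**
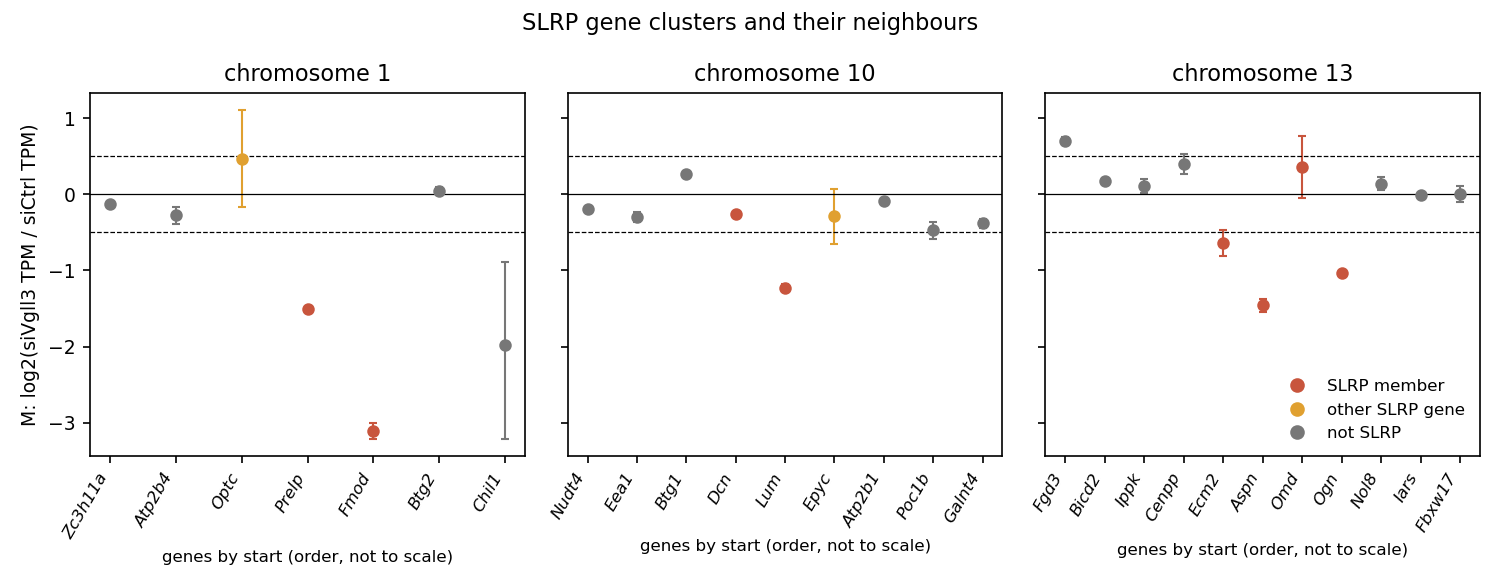
M with 95% counting intervals for the genes of the SLRP runs on chromosomes 1, 10 and 13 and their nearest measured neighbours, in order of start position and not to scale. SLRP members are red, other SLRP genes yellow and other genes grey, and *Kera* and genes with under 20 reads over both libraries are not drawn. The red points of *Prelp*, *Fmod*, *Lum*, *Ecm2*, *Aspn* and *Ogn* lie below −0.5, and among the grey points only *Chil1*, with 35 and 9 reads, does so.

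VGLL proteins bind TEAD transcription factors, whose sites hold the core letters GGAATG. In the study, an siRNA against *Tead1* left the fibrotic genes of cardiac myofibroblasts unaffected. The 250 bases before the start site were searched for GGAATG, for TGACTCA or TGAGTCA (the letters of an AP-1 site), for CCAAT and for TATAAA, on both strands, in the RefSeq promoters of GRCm38.p6. Promoters were found for 8 of the 10 members, all but *Dcn* and *Lum*, with 2 start sites for *Podn*. The window of *Prelp*, from 133921402 to 133921651, lay inside the span of the gene given above. Among all 32851 promoters of the table, 12.6% held GGAATG, 4.46% an AP-1 site, 33.8% CCAAT and 12.4% TATAAA. Among the 11983 promoters of genes with A > 0, these shares were 10.7%, 3.26%, 35.6% and 6.34%. Of the 8 members, *Ogn* alone held GGAATG, 86 bases before its start site, and none held either AP-1 sequence. TATAAA was found in *Ogn* and *Aspn*, and CCAAT in *Prelp* and *Aspn*. None of the letters searched was in more than 2 of the 8 members. The windows below, 5′ to 3′ on the strand of the gene with matches in capitals, are shown for the gene with the lowest M, for the gene with the TEAD core and for the most abundant gene.
*Fmod*, chr1:134037004-134037253, plus strand: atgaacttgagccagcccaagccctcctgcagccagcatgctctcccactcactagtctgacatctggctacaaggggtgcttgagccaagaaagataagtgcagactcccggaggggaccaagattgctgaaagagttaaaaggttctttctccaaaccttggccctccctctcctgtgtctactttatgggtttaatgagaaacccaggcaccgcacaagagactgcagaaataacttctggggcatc
*Ogn*, chr13:49607765-49608014, plus strand: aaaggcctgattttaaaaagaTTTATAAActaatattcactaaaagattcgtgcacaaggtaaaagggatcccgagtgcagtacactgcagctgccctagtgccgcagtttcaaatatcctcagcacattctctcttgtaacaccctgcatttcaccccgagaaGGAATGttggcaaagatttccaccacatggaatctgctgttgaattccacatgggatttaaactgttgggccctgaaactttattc
*Bgn*, chrX:73483351-73483600, plus strand: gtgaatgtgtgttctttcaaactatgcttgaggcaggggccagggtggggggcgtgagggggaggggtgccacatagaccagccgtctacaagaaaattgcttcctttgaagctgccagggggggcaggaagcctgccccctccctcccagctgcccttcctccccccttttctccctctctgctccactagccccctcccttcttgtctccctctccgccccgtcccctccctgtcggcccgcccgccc

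The windows of *Fmod* and *Bgn* held none of the letters searched. In *Ogn*, TATAAA was matched on both strands by overlapping letters, 229 and 227 bases before the start site. Such matches describe the letters only and show no binding, and whether they bear on M was not tested.

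miR-29 microRNAs are known to target collagen mRNAs, and the study reported higher miR-29b and miR-29a after *Vgll3* knockdown in cardiac myofibroblasts. The 3′ UTRs were therefore searched for TGGTGCT, the match to the miR-29 seed. The mature miR-29 sequences from RefSeq share this seed, bases 2 to 8, written in capitals.
miR-29a-3p: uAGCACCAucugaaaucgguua
miR-29b-3p: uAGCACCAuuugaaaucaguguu
miR-29c-3p: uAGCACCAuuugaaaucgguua

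Among the 10 SLRP members, a match was found only in *Prelp*, 1 match at base 1792 of a 3′ UTR of 2302 bases (GRCm38 chr1:133910808-133910814, minus strand). It is shown with its flanks, the match in capitals.
*Prelp* 3′ UTR: cggctgaaagcaaccTGGTGCTacagcct

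Of the 9 members with A > 0, 1 (11.1%) had a match, and of the 10924 genes with A > 0 and a 3′ UTR, 14.3% did. For comparison, 8 of the 12 collagen genes listed below had one. The 3′ UTRs of *Fmod*, *Podn*, *Aspn*, *Lum*, *Ogn* and *Ecm2*, 652 to 1652 bases long, held no match. Whether miR-29 had a part in any of these values was not tested. Sites with fewer paired bases, other transcripts and the coding sequence were not searched, and miR-29 itself is not measured by these libraries.

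Enzymes that build glycosaminoglycan chains were measured with the core proteins. Of the 6 enzymes of the linker that joins a chain to its core protein, 2 were lower and 0 higher, where the shares over all genes were 11.4% and 5.73%. These were *Xylt1* and *Xylt2*, the xylosyltransferases that start the chain, with M of −0.69 [−0.79, −0.59] and −0.65 [−0.73, −0.57]. *Xylt1* was at 11.4 TPM with siCtrl and 7.10 TPM with si*Vgll3*, and *Xylt2* at 14.1 TPM and 8.99 TPM. The most abundant linker enzymes, *Fam20b* and *B3gat3*, had M of −0.04 and 0.14.

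Of 14 chondroitin and dermatan sulfate enzymes with A > 0, 2 (14.3%) were lower and 0 higher, a share near the 11.4% of all genes, with a median M of −0.26. *Chpf* and *Chsy1*, which polymerise chondroitin, had M of −0.60 [−0.63, −0.57] and −0.50 [−0.53, −0.47], the latter within counting error of the threshold and above it, at −0.46 to −0.45, under every other scaling. *Chst12*, a chondroitin sulfotransferase, and *Dse*, a dermatan sulfate epimerase, were the most abundant, with M of 0.15 and −0.19. Of 5 keratan sulfate enzymes with A > 0, 1 was lower and 1 higher, where the shares over all genes were 11.4% and 5.73%. *B4galt4*, a galactosyltransferase, was at −0.55 [−0.66, −0.44], an interval that holds the threshold, and at −0.49 with CPM, and *Chst1*, a keratan sulfate sulfotransferase, went the other way, from 1.91 TPM and 327 reads in siCtrl to 5.57 TPM and 884 reads in si*Vgll3*, an M of 1.55 [1.36, 1.73]. *B4galt1* and *B3gnt2*, the most abundant of these, had M of −0.43 and −0.19.

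Among other proteoglycans, 4 of 13 genes with A > 0 were lower (30.8%, against 11.4% of all genes) and 0 higher, with a median M of −0.40. The lower genes were the syndecan *Sdc3* at −0.58 and the glypicans *Gpc3* at −1.51, *Gpc4* at −0.56 and *Gpc6* at −0.59, all of which carry heparan sulfate at the cell surface. *Sdc4*, the most abundant, was at −0.44.

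Of the collagens that SLRPs bind, 9 of 12 were lower (75.0%, against 11.4% of all genes) and 0 higher, with a median M of −0.87. *Col1a1*, *Col3a1*, *Col5a1*, *Col2a1* and *Col1a2* had M from −0.90 to −0.53, and *Col14a1*, *Col6a3*, *Col6a2* and *Col6a1* had M from −2.08 to −1.43. *Col1a2* was the nearest to the threshold, at −0.53, and lay above it, at −0.49 to −0.48, under every other scaling. The M of *Fmod* was below that of every one of these collagens, while those of *Bgn* and *Dcn* were above them all. These are values of 2 libraries, and whether SLRPs and collagens differ was not tested.

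Among 13 ligands and receptors of SLRPs with A > 0, 3 were lower (23.1%, against 11.4% of all genes) and 0 higher. The lower genes were the growth factors *Tgfb2*, *Tgfb3* and *Bmp4*, with M of −0.58, −0.73 and −1.09, and *Lrp1*, an endocytic receptor of decorin and the most abundant of the list, was at −0.43. Of 7 proteases that process or cleave SLRPs, 3 were lower (42.9%, against 11.4% of all genes) and 0 higher (against 5.73%). Under every other scaling 2 were lower, and *Adamts5* was at −0.49 to −0.48. *Mmp2*, *Mmp14* and *Adamts5*, which cleave matrix proteins, had M of −0.71, −0.66 and −0.53, whereas *Bmp1*, which removes the propeptides of biglycan and of procollagens, was at 204 TPM with siCtrl and 254 TPM after si*Vgll3*, for an M of 0.32 [0.30, 0.34].

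**Figure D4:**
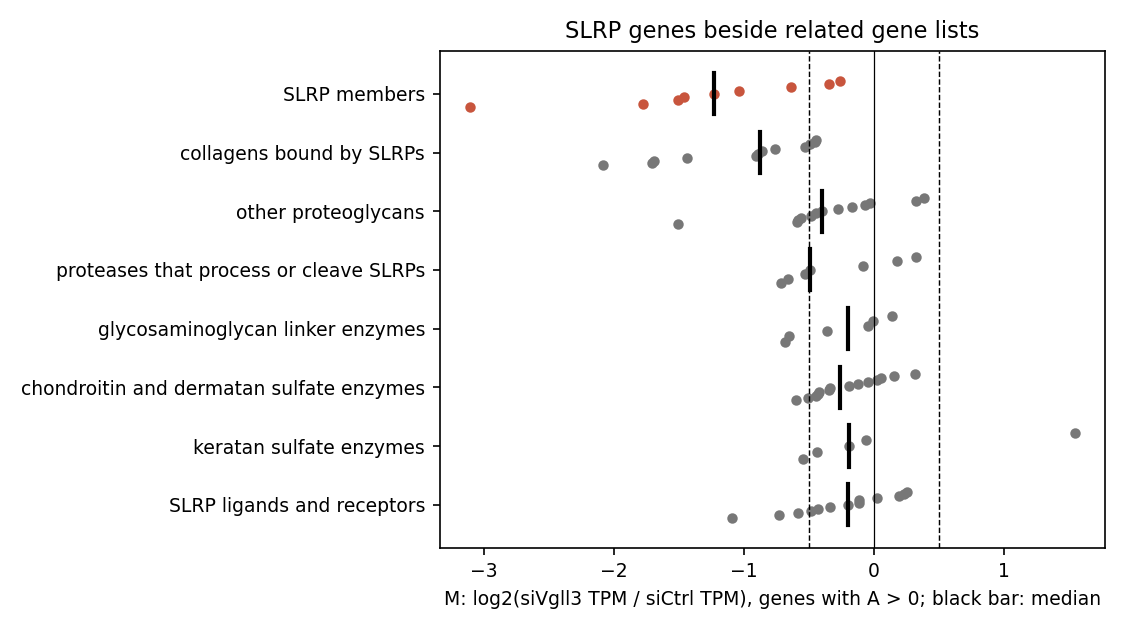
M of the genes with A > 0 in the SLRP list (red) and in 7 related lists (grey), each point 1 gene, with the median as a black bar and dashed lines at −0.5 and 0.5. The medians are −1.23 for SLRPs and −0.87 for the collagens they bind, and between −0.49 and −0.19 for the other lists.

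Cell type markers were checked beside these values. The fibroblast genes *Vim*, *Fn1*, *Pdgfra* and *Ddr2* had M from 0.04 to 0.29, *Pdgfrb*, *Tcf21* and *Col1a1* were lower at −0.74, −0.58 and −0.90, and *Thy1* was higher at 0.72. Of the myofibroblast genes, *Acta2* was at 3296 TPM with siCtrl and 3866 TPM with si*Vgll3*, *Tagln* and *Cnn1* were higher at 0.52 and 1.13, and *Postn* was lower at −1.22, and the 6 genes of the list summed to 6484 TPM and 7536 TPM. Of 10 leukocyte markers, 5 had 0 reads in either library, *Ptprc* among them, and the summed TPM of the list was 14.96 and 8.46. *Lyz2* held 10.9 TPM of this with siCtrl and 3.13 TPM with si*Vgll3* (M of −1.80), and *Cd14* and *Csf1r* had M of 0.62 and 0.50. The 6 endothelial markers summed to 24.5 TPM and 20.2 TPM, mostly *Tek* (M of −0.54), with *Cdh5* at 0.50. Of the cardiomyocyte markers, *Tnnt2* was at 60.05 TPM and 10.4 TPM, *Tnni3* had 0 and 10 reads, and the other 4 had none in either library. The 4 pericyte markers summed to 1.62 TPM and 1.36 TPM and the 3 Schwann cell markers to 0.0496 TPM and 0.0962 TPM, all under A of 0 or without TPM.

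The 4 mesothelial and epicardial markers, which summed to 43.7 TPM and 37.4 TPM, lay on both sides of 0. *Upk3b* went from 31.6 TPM to 9.89 TPM and *Wt1* from 7.61 TPM to 4.78 TPM, while *Krt19* went from 2.86 TPM to 16.8 TPM and *Msln* from 1.58 TPM to 5.93 TPM. Of the cartilage and tendon markers, genes of tissues rich in *Fmod*, *Prelp* and *Aspn*, *Sox9* was at 97.3 TPM and 95.2 TPM, *Col2a1* at 25.1 TPM and 14.8 TPM, and *Comp* at 4.197 TPM and 1.85 TPM, while *Tnmd* went from 1.90 TPM to 3.24 TPM, and the 6 genes of the list summed to 130.6 TPM and 117 TPM. The part of these markers in the SLRP values was not tested.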

How the data were processed

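mRNA libraries of siCtrl and si*Vgll3* cardiac myofibroblasts, 1 per condition, were made with a stranded poly-A kit. After quality checks (FastQC) and trimming (Trimmomatic), the authors aligned reads to mm10 by HISAT2 and quantified known genes by StringTie. Tool versions, annotation release and strand setting are not given in the sources used here. The authors deposited raw read counts per gene, without normalization, and TPM per gene, normalised for length and library size, for 14158 genes.

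M and A were computed from TPM with nothing added, and counting intervals from the read counts with SciPy 1.17.1 in Python 3.11.15. The check of the interval used simulated Poisson counts, which hold no spread between cultures. Positions, promoters and miRNAs came from RefSeq for GRCm38.p6, matched by gene ID, and 3′ UTRs from GENCODE M21 on the same assembly, from the transcript with the longest coding sequence. Protein sequences were not used here.

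The members and gene lists were chosen with earlier results of these data known. Named genes were every SLRP gene, the neighbours of SLRP runs, *Vgll3* and, in each list, the 2 genes with the largest mean TPM and every gene past either threshold with A > 0. Other named genes were chosen after their values were seen. Alternatives were CPM, TMM (edgeR 4.0.16) and DESeq2 1.42.0 size factors for scaling only, 0.1 or 1 TPM added, other filters, centred M, a threshold of 1 and intervals wholly past the threshold.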

Additional observations from a re-analysis of the deposited data

How the results depend on the processing

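No paired analysis was possible because siCtrl and si*Vgll3* have 1 library each, and for the same reason no replicate was left out. The number of lower SLRP genes was 7 of 9 tested under each change of scaling and with centred M. With 0.1 TPM added, without a filter on A and with at least 10 reads in each library it was 7 of 10, since *Omd* was then tested. It was 6 of 10 with 1 TPM added and 6 of 9 with a threshold of 1 or with the whole interval past the threshold. With A > 2 it was 5 of 7. Over all 11754 genes with A > 0, 3.27% had M below −1 and 977 had the whole interval below −0.5. For the other settings named so far, no such share was worked out. No SLRP gene was higher under any of these settings, and the median M ran from −1.23 to −1.07. Of the members, only *Ecm2* crossed −0.5, at −0.46 with 1 TPM added, which shrinks M of low genes by construction. Over the 6 alternatives that change M, *Fmod* ran from −3.08 to −2.87 and *Podn* from −1.73 to −1.12. The M of the summed SLRP TPM was −0.36 with CPM, −0.37 with TMM, −0.38 with DESeq2's size factors and −0.35 when centred. Chosen after seeing the data, it was −0.68 without *Bgn* and −1.37 without *Bgn* and *Dcn*, since *Bgn* holds most of the sum. With A as the mean of the log2 TPM of both libraries, also chosen after seeing the data, 7 of 9 SLRP genes were lower, against 11.2% of 11704 genes. The count below −1 was 5 in place of 6 with CPM, TMM, DESeq2's size factors and centring, since *Ogn* then lay above −1. Under these 4 scalings the lower collagens were 8 in place of 9 (without *Col1a2*), the lower proteases 2 in place of 3 (without *Adamts5*) and the lower chondroitin and dermatan sulfate enzymes 1 in place of 2 (without *Chsy1*). *B4galt4*, the only lower keratan sulfate enzyme, was no longer lower with CPM, with 1 TPM added or with the whole interval past the threshold, and *Podnl1* was at −0.50 with 1 TPM added, above the threshold before rounding. Depth limits *Omd*, with 208 reads over both libraries, and *Optc*, *Chadl*, *Nyx*, *Epyc* and *Podnl1* among the family genes that are not members.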

Other observations

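Some genes of the keratan sulfate and proteoglycan lists had A below 0, or no TPM in the case of *Chst5*, and so were left out of the counts, although their reads differed between the libraries by more than counting error. They were chosen after their values were seen. Such genes were also in other lists and went either way, for example *Chst13* at −1.57 [−2.42, −0.79] and *Kdr* at 0.97 [0.57, 1.38]. Among keratan sulfate enzymes, *B3gnt7*, which extends the chain, had 2 reads in siCtrl and 27 reads in si*Vgll3*, an M of 3.87 [1.88, 6.99], the same direction as *Chst1*. *Chst5*, a sulfotransferase of the same pathway, had 0 and 11 reads, where a count of 0 allows up to 3 reads.

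Of the proteoglycans, *Prg4*, which encodes the joint lubricant lubricin, had 0.416 TPM with siCtrl and 1.22 TPM after si*Vgll3*, for an M of 1.55 [1.23, 1.87] from 114 and 308 reads. *Cspg5* had 8 and 36 reads, an M of 2.32 [1.195, 3.64]. *Acan*, the cartilage proteoglycan aggrecan, went the other way with 244 and 104 reads, an M of −1.12 [−1.46, −0.78]. *Cspg4*, with 568 and 416 reads, was at −0.34 [−0.52, −0.15], and *Spock2*, with 15 and 28 reads, at 1.06 [0.10, 2.07]. All of these are differences between 2 libraries at low levels.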
